A study of Mus musculus with 19 samples.

Results

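Mef2c, Lyl1, Tal1, Lmo2, Myb, Hhex, Gfi1, Gfi1b and Bmi1 encode 9 regulators of blood stem and progenitor cells, and they were followed here through 3 stages of innate lymphoid cell (ILC) development. They were chosen by name, and all 9 were found among the 18607 genes of the expression table. The RNA-seq libraries came from sorted bone marrow cells of C57BL/6 mice. ALP (7 libraries) were lineage-low cells with low Ly-6D, Kit, IL-7Rα and high Flt3, a lymphoid progenitor that the series' design calls common lymphoid. EILP (7 libraries), early ILC progenitors, were lineage-low cells with low Ly-6D, CD122 and Thy-1.2, Kit, high GFP and intermediate to low IL-7Rα. ILCp (5 libraries), a later ILC progenitor, shared the first of these gates and had Kit, high GFP, Thy-1.2, high IL-7Rα and the integrin α4β7. Every ALP and EILP library and ILCp 1 to 3 came from Tcf7EGFP/+ mice, whose GFP reports the transcription factor gene Tcf7. ILCp 4 and ILCp 5 came from Plzf-cre-GFP/+ mice, so their GFP gate was set on another reporter. There was no library from mice without a reporter allele.

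The proteins of these genes act at different layers of the same blood progenitor programme. MEF2C is a MADS-box factor that class IIa histone deacetylases hold in a repressed state, and in mice it is known for its part in lymphoid development. TAL1 (also called SCL) and its close relative LYL1 are basic helix-loop-helix proteins that bind DNA paired with an E protein, and LMO2 is the LIM-only bridge that joins such a pair to LDB1 and GATA factors. HHEX is a homeodomain factor needed in mice for early lymphoid cells, and MYB is needed for definitive blood formation. GFI1 and GFI1B are related zinc finger repressors that recruit the demethylase KDM1A through the SNAG domain, and BMI1 is a Polycomb protein that keeps stem cells self-renewing in part by silencing the Cdkn2a locus.

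The deposited values were log2 CPM, that is log2 of counts scaled to a common library total. They appeared from the values to have been cleared of differences between the 5 sequencing batches, which would make the spread within groups too small. Batch 3 held 2 EILP libraries alone, and batch 5 held no ILCp. The labels do not say that the libraries came from separate animals, so the p-values measure the spread between these libraries, which may be technical. The sort was visible in the RNA. In the limma fit described with the processing, Tcf7 was 9.46 ± 1.19 (log2 fold change ± SE, adjusted p = 0.000124) higher in EILP than in ALP, Thy1 was 5.23 ± 0.95 (adjusted p = 0.00755) higher and Il7r 4.58 ± 0.54 (adjusted p = 0.000283) higher in ILCp than in EILP. ALP 7 and EILP 2 had the lowest mean correlation with their own group (0.757 and 0.763), and EILP 2 held the highest summed level of 12 myeloid genes, 44284 CPM against a group median of 6429. In such bulk samples, fewer cells of a type and less RNA per cell cannot be told apart.

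The promoters of 3 genes are printed first because these genes carry the main patterns. Mef2c and Lyl1 fell between EILP and ILCp, and Gfi1b rose between ALP and EILP. RefSeq promoters of build GRCm38.p6 were found for 8 of the 9 genes and not for Lmo2. Each sequence is the 250 bases before a start site, read 5′ to 3′ on the strand of the gene. Capitals mark matches on either strand to the GATA motif GATAAG, the ETS motif CCGGAA, the CCAAT box, CCAAT, and the core of the GFI motif, AAATCA. These motifs do not overlap in the printed sequences.
Mef2c, the first of 3 RefSeq start sites, chr13:83503784-83504033, plus strand: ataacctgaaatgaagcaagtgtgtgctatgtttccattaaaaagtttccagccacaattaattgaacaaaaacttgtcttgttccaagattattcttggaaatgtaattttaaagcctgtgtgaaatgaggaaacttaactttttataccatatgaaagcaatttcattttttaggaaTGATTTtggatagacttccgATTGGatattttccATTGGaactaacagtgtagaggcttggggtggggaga
Lyl1, chr8:84701207-84701456, plus strand: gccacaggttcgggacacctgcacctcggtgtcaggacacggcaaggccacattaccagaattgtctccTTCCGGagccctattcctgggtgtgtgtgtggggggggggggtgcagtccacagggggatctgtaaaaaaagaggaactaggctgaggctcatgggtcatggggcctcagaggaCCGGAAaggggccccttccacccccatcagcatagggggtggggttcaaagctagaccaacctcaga
Gfi1b, chr2:28621983-28622232, minus strand: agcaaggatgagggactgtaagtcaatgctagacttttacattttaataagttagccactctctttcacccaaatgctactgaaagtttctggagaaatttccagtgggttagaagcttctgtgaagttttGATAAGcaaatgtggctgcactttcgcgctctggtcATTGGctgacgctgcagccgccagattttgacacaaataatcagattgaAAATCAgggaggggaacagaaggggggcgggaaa
Counted from the start site, the Mef2c window held a GFI match that begins at -71 and CCAAT boxes at -51 and -37. The Lyl1 window held ETS matches at -181 and -67. The Gfi1b window held a GATA match at -119, a CCAAT box at -83 and a GFI match at -34. Among 32851 mouse promoters of the same length, 6.55% held the GATA motif, 12% the ETS motif, 33.8% the CCAAT box and 12.4% the GFI core. The matches are letters in a window and say nothing of binding.

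From ALP to EILP, Mef2c and Lmo2 fell and Gfi1b rose, while Lyl1, Tal1, Myb, Hhex, Gfi1 and Bmi1 did not pass the threshold of an adjusted p of 0.05. From EILP to ILCp, Lyl1 and Mef2c fell and none of the 9 rose. Across both steps, Mef2c, Lmo2, Hhex, Lyl1 and Myb were lower in ILCp than in ALP. These are 2 of 9 genes lower and 1 of 9 higher in EILP versus ALP, where 2.79% of all genes were called lower and 2.25% higher. They are 2 of 9 lower and 0 of 9 higher in ILCp versus EILP, where 1.46% and 1.76% of all genes were called. They are 5 of 9 lower and 0 of 9 higher in ILCp versus ALP, where 4.39% and 3.86% were called. The 3 comparisons share libraries, so their counts are not independent of each other, and the genes had been picked with results of these data known. The median log2 fold change of the 9 genes was -0.30, -1.33 and -1.11 in the 3 comparisons, against 0.00, -0.08 and -0.03 for all genes tested. All genes split into 419 higher and 520 lower in EILP versus ALP, 327 and 271 in ILCp versus EILP, and 718 and 816 in ILCp versus ALP. Centring each library on its median turned these splits to 804 and 395, 279 and 390, and 813 and 584, with median changes of 0.22, -0.17 and 0.09, and left the calls of the 9 genes as they were.

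**Figure D1:**
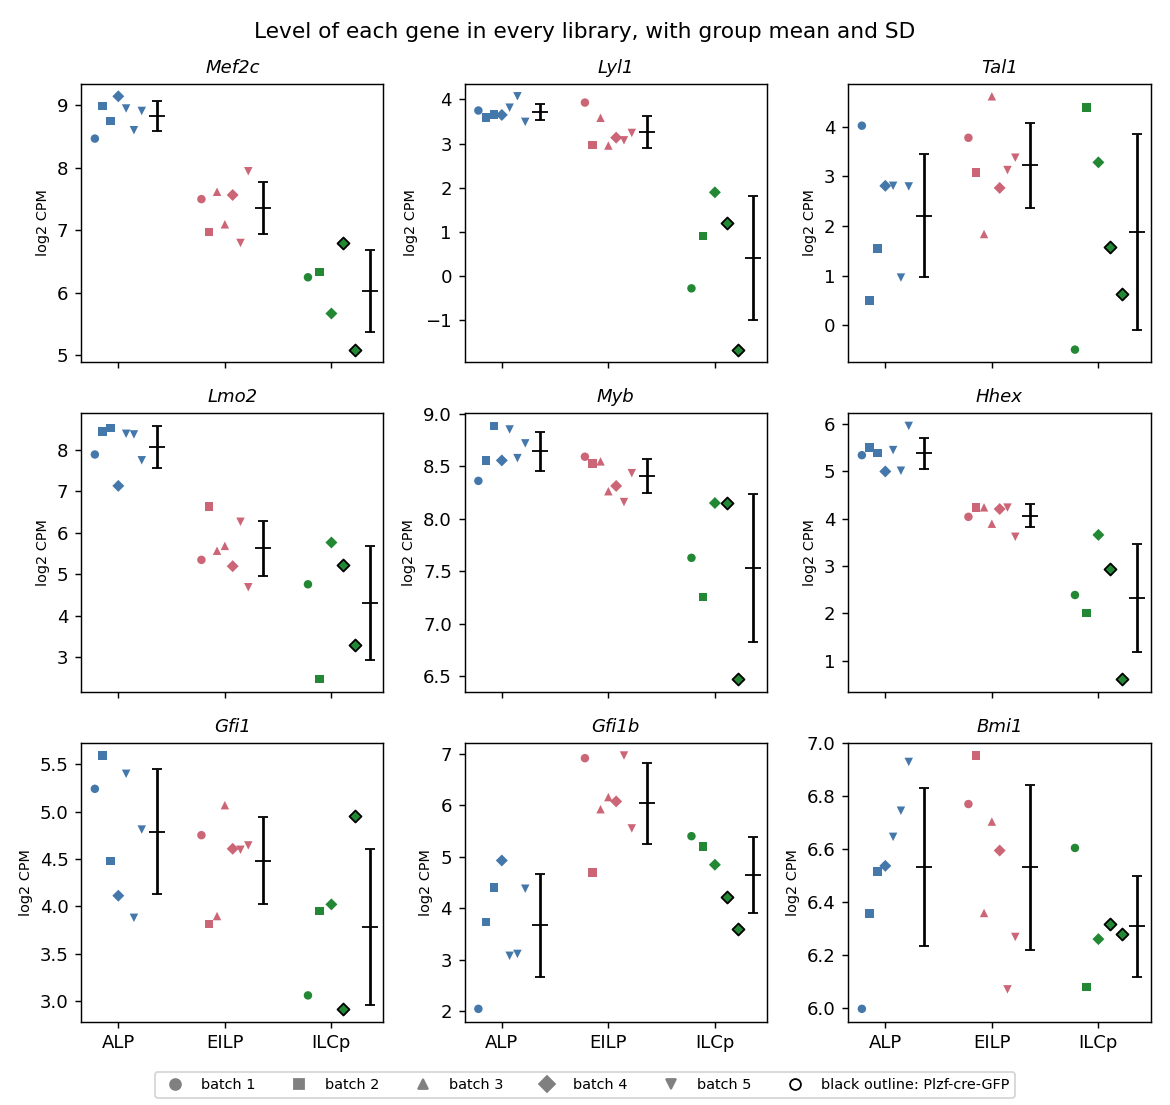
Level of each of the 9 genes (log2 CPM, vertical axis) in every ALP, EILP and ILCp library, with the marker shape for the sequencing batch, a black outline for Plzf-cre-GFP libraries, and the group mean and SD beside the points. Mef2c steps down from a mean of 8.83 to 7.35 to 6.03, Gfi1b peaks in EILP at 6.04, and Bmi1 stays between 6.31 and 6.53.

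Mef2c (chr13:83504034-83667080, plus strand, GRCm38) stepped down at both transitions. In ALP its level ran from 8.47 over a median of 8.91 to 9.14 log2 CPM, with a mean of 8.83 ± 0.24 (SD, n = 7). In EILP it ran from 6.80 over 7.50 to 7.94, with a mean of 7.35 ± 0.41 (SD, n = 7). Every EILP library lay below every ALP library. In ILCp 1 to 5 it was 6.25, 6.33, 5.67, 6.80 and 5.09, with a mean of 6.03 ± 0.66 (SD, n = 5). The lowest EILP library and the highest ILCp library met (a gap of -0.00699), and all ILCp libraries were below all ALP libraries. Mef2c fell by 1.47 ± 0.27 (log2 ± SE, adjusted p = 0.00365) in EILP and by a further 1.33 ± 0.32 (adjusted p = 0.0364) in ILCp, so that ILCp lay 6.96-fold below ALP (adjusted p = 3.09e-05). The first step went the same way in 4 of 4 batches with both groups (-1.89 to -0.97) and the second in 3 of 3 (-1.71 to -0.64). The first call missed the threshold without ALP 7 and EILP 2 together (-1.30, adjusted p = 0.0501). The second was lost when any of ALP 2 to 6, EILP 1, 3, 4, 5 or 7, or ILCp 1, 2, 3 or 5 was left out, with folds of -1.48 to -1.13 and adjusted p up to 0.168, and also with only the groups compared (adjusted p = 0.261), with only batches holding both groups (adjusted p = 0.17), without the Plzf-cre-GFP libraries and with no mean-variance trend. The fall over both steps was kept in each of 34 alternatives.

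The 7 other genes of the MEF2 family and of the class IIa histone deacetylases that restrain it all had changes below 0 from ALP to EILP, of which 2 passed. None passed in the later step or over both steps. Mef2a, a paralogue, fell by 1.60 ± 0.28 (adjusted p = 0.0024) from 6.93 ± 0.54 in ALP to 5.33 ± 0.38 in EILP, and it stood at 6.39 ± 0.28 in ILCp. Hdac9, a class IIa deacetylase, went from 3.85 ± 0.72 in ALP to -3.20 ± 2.83 in EILP (adjusted p = 0.0051). It had a mean of -0.59 ± 2.20 in ILCp. In EILP, 3 of 7 libraries lay at the shared lowest level. This is the lowest value of the gene in a batch, where more than 1 library holds it. Mef2b lay at that level in 6 of 7 ALP, 7 of 7 EILP and 3 of 5 ILCp libraries. The direction of its change in EILP versus ALP (-0.16, adjusted p = 0.839) therefore cannot be read. Mef2b was named after its values had been seen. Mef2d and Hdac7 did not pass in any comparison. The median change of the list was -0.64 in EILP versus ALP, 0.69 in ILCp versus EILP and -0.20 in ILCp versus ALP.

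Lmo2 (chr2:103957986-103981878, plus strand), the LIM-only bridge of the TAL1 and LYL1 complex, fell between ALP and EILP. Its level in ALP ran from 7.13 over 8.37 to 8.52, with a mean of 8.07 ± 0.51 (SD, n = 7), and in EILP from 4.68 over 5.57 to 6.63, with a mean of 5.62 ± 0.66 (SD, n = 7). No EILP library reached the lowest ALP library. ILCp 1 to 5 had levels of 4.76, 2.47, 5.76, 5.21 and 3.28. ILCp overlapped EILP and lay wholly below ALP. Lmo2 fell by 2.44 ± 0.52 (adjusted p = 0.0103) in EILP, in 4 of 4 batches (-2.69 to -1.84). This call was lost without EILP 7 (-2.15, adjusted p = 0.0506). The change from EILP to ILCp was -1.33 ± 0.62 (adjusted p = 0.296) and was -0.40 without ILCp 2, whose batch gave -4.17 against -0.59 and -0.44 in the other two. Over both steps Lmo2 was 13.7-fold lower in ILCp (-3.77 ± 0.60, adjusted p = 0.000826), and this value was -2.74 without ILCp 2.

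Lyl1 (chr8:84701457-84704715, plus strand), a DNA-binding subunit of the complex, did not pass between ALP and EILP and fell from EILP to ILCp. It ran from 3.49 over 3.65 to 4.07 in ALP and from 2.95 over 3.13 to 3.93 in EILP, with means of 3.71 ± 0.19 and 3.27 ± 0.36 (SD, n = 7 each). The change between them was -0.45 ± 0.55 (adjusted p = 0.717). The levels in ILCp 1 to 5 were -0.28, 0.90, 1.90, 1.21 and -1.66. All 5 ILCp libraries lay below every EILP and every ALP library. Lyl1 fell by 2.85 ± 0.65 (adjusted p = 0.0269) from EILP to ILCp, in 3 of 3 batches (-4.20 to -2.07), and was 9.85-fold lower in ILCp than in ALP (adjusted p = 0.0035). Both calls were lost with only the groups compared (adjusted p = 0.184 and 0.0565) and with only batches holding both groups (adjusted p = 0.143 and 0.0553). The call between EILP and ILCp was lost without EILP 1 (-2.57, adjusted p = 0.0708), without EILP 5 (-2.93, adjusted p = 0.0841), without ILCp 1 (-2.49, adjusted p = 0.0833) and without ALP 7 and EILP 2 together (-2.94, adjusted p = 0.0672). Nfix lies on the other strand and shares 4 exon bases with Lyl1. The libraries do not mark strand, and Nfix passed in none of the comparisons (4.96, 5.59 and 4.72 in ALP, EILP and ILCp).

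Tal1 (chr4:115056426-115071755, plus strand), the relative of Lyl1, scattered within every stage. It ran from 0.50 over 2.80 to 4.02 in ALP and from 1.84 over 3.13 to 4.61 in EILP. In ILCp 1 to 5 it was -0.49, 4.39, 3.28, 1.58 and 0.63, and the ILCp libraries ran from below the lowest ALP library to near the highest EILP library. The changes of 1.02 ± 0.88 (adjusted p = 0.588), -1.35 ± 1.04 (adjusted p = 0.564) and -0.33 ± 1.00 (adjusted p = 0.903) were each within the spread, and the direction of those in ILCp depended on which libraries were used. The log2 difference of Tal1 and Lyl1 had a mean of -1.51 ± 1.29 in ALP, -0.04 ± 1.00 in EILP and 1.46 ± 1.48 in ILCp, and in batches with both groups EILP minus ALP ran from -0.42 to 2.71. Gene length adds the same offset in every library, so this compares stages and not the levels of the genes. The pair was chosen after its values had been seen, so the difference is given as a description, without a test result.

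**Figure D2:**
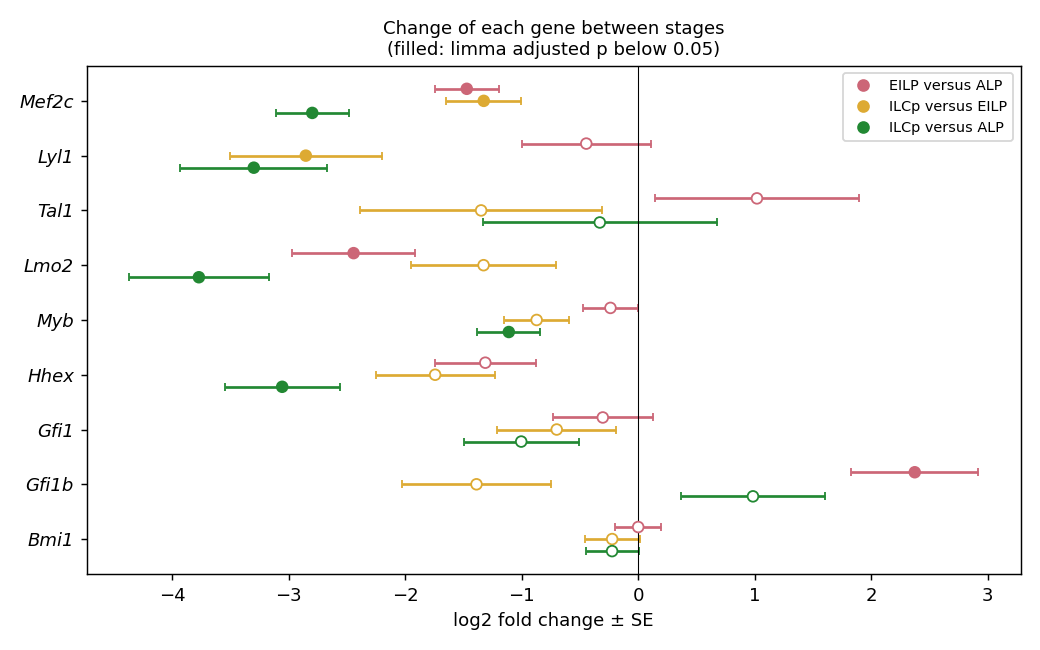
Log2 fold change with SE (horizontal axis) of each of the 9 genes in EILP versus ALP, ILCp versus EILP and ILCp versus ALP, with filled points for a limma adjusted p below 0.05. Mef2c is filled in all 3 comparisons, Gfi1b is the only filled point to the right of 0, and Bmi1 lies close to 0 throughout.

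The partners of TAL1, LYL1 and LMO2 did not move as a block. Of 15 genes, 1 was higher and 2 were lower in EILP versus ALP, 2 higher and 1 lower in ILCp versus EILP, and 3 higher and 4 lower in ILCp versus ALP. Their median changes were -0.13, 0.19 and -0.14. Lmo4, another LIM-only protein that binds LDB1, went opposite to Lmo2. It rose from 5.01 ± 0.60 in ALP to 6.67 ± 0.51 in EILP (1.66 ± 0.32, adjusted p = 0.00516) and to 10.2 ± 0.38 in ILCp (a further 3.49 ± 0.38, adjusted p = 0.000166). Ssbp3, which stabilises LDB1, was 1.66 ± 0.31 higher in ILCp than in ALP (adjusted p = 0.00289), and its relative Ssbp2 fell by 0.80 ± 0.21 (adjusted p = 0.0418) in EILP. Ldb1 itself did not pass in any comparison and stayed at 6.63 ± 0.28, 6.39 ± 0.15 and 6.49 ± 0.44.

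Among the DNA-binding partners, the E protein gene Tcf4 fell by 1.76 ± 0.20 (adjusted p = 4.85e-05) in EILP, while the E protein gene Tcf3 did not pass. Runx1, Erg and Fli1 encode factors that share stem cell enhancers with this complex. Runx1 was lower in ILCp than in ALP (-1.67 ± 0.40, adjusted p = 0.0159). Erg stood at 4.97 ± 1.34 in ALP, 2.06 ± 1.13 in EILP and -2.78 ± 2.60 in ILCp (adjusted p = 0.000897, ILCp versus ALP). Fli1, of the same ETS family as Erg, rose by 0.99 ± 0.22 (adjusted p = 0.0222) from EILP to ILCp. Cbfa2t3, a corepressor of the complex also called ETO2, fell by 1.89 ± 0.47 (adjusted p = 0.0406) from EILP to ILCp. Lmo1, named after its values had been seen, completed the lower genes of ILCp versus ALP, with 2.80 ± 1.08 in ALP and -1.13 ± 2.60 in ILCp (adjusted p = 0.0465). Gata1 and Gata2 did not pass, with SEs of 1.25 or more on the log2 scale.

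**Figure D3:**
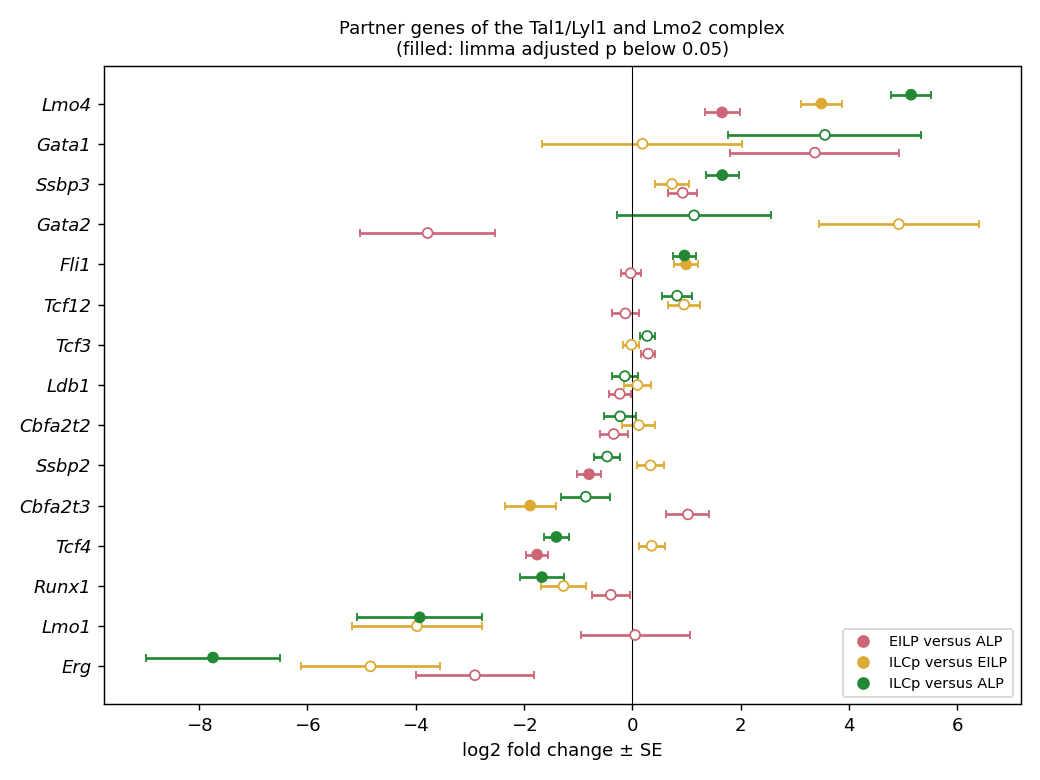
Log2 fold change with SE (horizontal axis) of the 15 partner genes in the 3 comparisons, with filled points for a limma adjusted p below 0.05. Lmo4 is filled on the right in all 3 comparisons (1.66, 3.49 and 5.15), and Erg has the lowest point (-7.74, ILCp versus ALP).

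Hhex (chr19:37434810-37440731, plus strand) was lower in ILCp than in ALP and passed at neither single step. It ran from 5.00 over 5.39 to 5.96 in ALP and from 3.62 over 4.20 to 4.24 in EILP. EILP lay wholly below ALP. In ILCp 1 to 5 it was 2.39, 2.01, 3.66, 2.94 and 0.61, with ILCp 3 just above the lowest EILP library and all ILCp libraries below ALP. The change in EILP was -1.31 ± 0.43 (adjusted p = 0.104), lower in 4 of 4 batches, and the change from EILP to ILCp was -1.74 ± 0.51 (adjusted p = 0.0782), lower in 3 of 3. The first passed in 7 of 34 alternatives, among them without ILCp 5 (-1.33, adjusted p = 0.0154) and with only the groups compared (adjusted p = 0.00796). The second passed in 4 of 34, among them without ILCp 3 (-2.03, adjusted p = 0.0238) and with no batch term (adjusted p = 0.00293). Hhex was 8.32-fold lower in ILCp than in ALP (-3.06 ± 0.49, adjusted p = 0.00091), a call kept in each of 34 alternatives.

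Myb (chr10:21124935-21160984, minus strand) was lower in ILCp than in ALP and passed at neither single step. It ran from 8.36 over 8.58 to 8.88 in ALP and from 8.16 over 8.43 to 8.59 in EILP, overlapping widely. The values of ILCp 1 to 5 were 7.63, 7.26, 8.15, 8.15 and 6.47. All ILCp libraries were below all EILP libraries, by a margin of 0.00554, and below all ALP libraries. The changes were -0.24 ± 0.24 (adjusted p = 0.644) in EILP and -0.87 ± 0.28 (adjusted p = 0.112) from EILP to ILCp. Myb was 2.16-fold lower in ILCp than in ALP (-1.11 ± 0.27, adjusted p = 0.0174), which was lost without ALP 4 (-1.16, adjusted p = 0.0595) and without ILCp 2 (-0.96, adjusted p = 0.122). It was also lost with only the groups compared (adjusted p = 0.17), with only batches holding both groups (adjusted p = 0.168) and with no mean-variance trend (adjusted p = 0.0588). Gm26577, on the other strand, shares 559 exon bases with Myb and passed in none of the comparisons (-3.14, -4.98 and -4.59 in ALP, EILP and ILCp). None of the 4 genes of the MYB family and its coactivators (Mybl1, Mybl2, Crebbp and Ep300) passed in any of the 3 comparisons.

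By groups of libraries that did not overlap, 3 of the 9 genes (Mef2c, Lmo2 and Hhex) were lower in EILP than in ALP and 0 higher, against 2.38% and 2.36% of all genes. Lyl1 and Myb were lower in ILCp than in EILP and 0 genes higher, against 5.34% and 3.35%. Mef2c, Lyl1, Lmo2, Myb and Hhex were lower in ILCp than in ALP and 0 higher, against 4.96% and 4.01%. ILCp 5 was the lowest ILCp library for 5 of the 9 genes (Mef2c, Lyl1, Myb, Hhex and Gfi1b). The same share over all genes was not computed, so this count is not particular to the 9 genes.

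**Figure D4:**
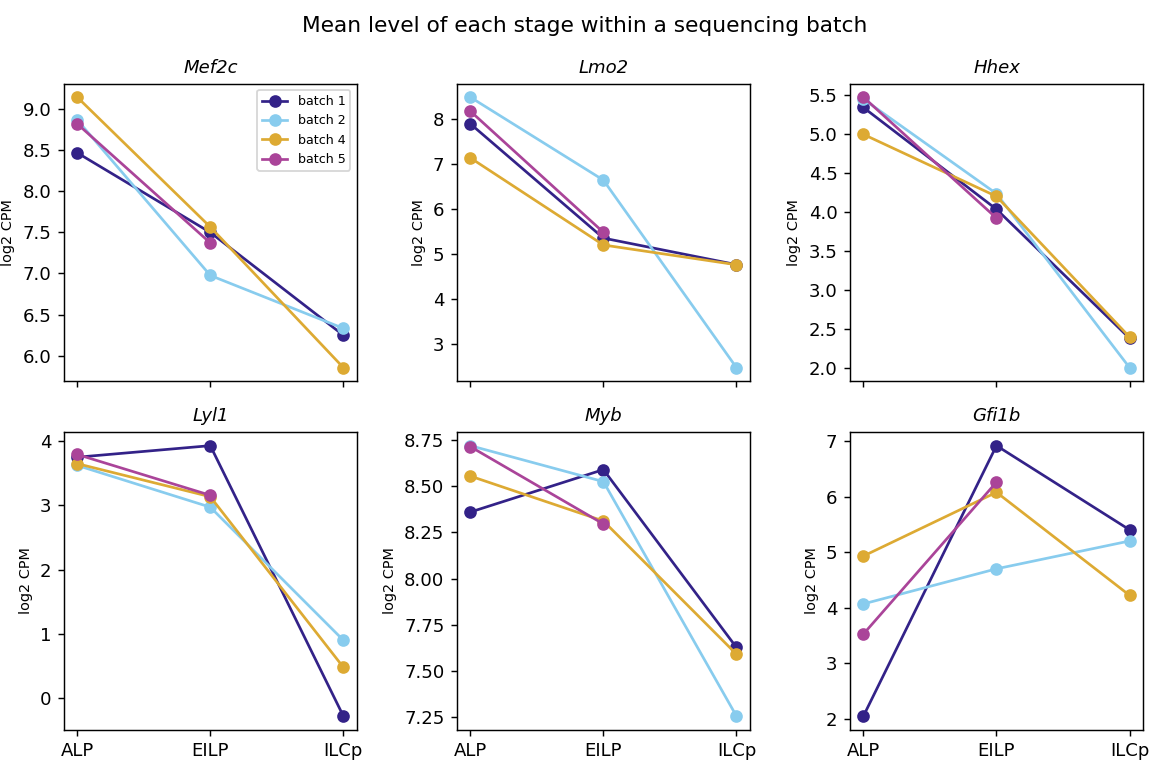
Mean level (log2 CPM, vertical axis) of Mef2c, Lmo2, Hhex, Lyl1, Myb and Gfi1b in each stage, with 1 line for each sequencing batch that held more than 1 stage. Mef2c, Lmo2 and Hhex step down at every stage in every batch shown, and Gfi1b is higher in EILP than in ALP in 4 of 4 batches.

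The falls of these genes came with lower levels of some B lineage and dendritic cell markers. Of 10 B lineage genes, 3 were lower in EILP than in ALP (Rag1, Blnk and Ebf1), and the summed level of the list was 160 to 323 CPM in ALP, 54.3 to 99.9 in EILP and 27.6 to 64.3 in ILCp. Igll1 had a change above 0 in EILP versus ALP (0.58, adjusted p = 0.918), and the list's median was -2.34. In each stage Cd79b had the highest mean CPM of this list. The defining gene Pax5 lay at the shared lowest level in 6 of 7 ALP, 7 of 7 EILP and 5 of 5 ILCp libraries. Of 8 dendritic cell genes, 2 were lower (Siglech and Bst2) and 1 higher (Batf3) in EILP versus ALP, and Irf8 fell by 2.18 ± 0.49 (adjusted p = 0.0243) from EILP to ILCp. Spib (3.05, adjusted p = 0.494) and Zbtb46 (0.94, adjusted p = 0.877) had changes above 0 in EILP versus ALP that did not pass, and the list's median was -0.95. Igll1, Cd79b, Spib and Zbtb46 were named after their values had been seen. Flt3, Itgax, Siglech, Bst2 and Irf8 were lower in ILCp than in ALP, of which Flt3 is a gene of the ALP gate and, with Itgax, was named after its values had been seen. Batf3 was higher in ILCp than in ALP (6.16 ± 1.38, adjusted p = 0.0106). The dendritic list summed to 1954 to 3517 CPM in ALP, 675 to 1028 in EILP and 85.4 to 401 in ILCp. Flt3 in ALP, and Irf8 in EILP and ILCp, had the highest mean CPM of this list, so the sums follow these genes most. Of 12 myeloid genes, Cebpe was higher in EILP than in ALP, Cebpe, Prtn3 and Mpo were lower in ILCp than in EILP, and Csf1r was lower in ILCp than in ALP. Cebpe lay at the shared lowest level in 3 of 7 ALP libraries. From ALP to EILP, Csf1r (-2.67, adjusted p = 0.319), Lyz2 (-2.37, adjusted p = 0.478), S100a9 (-1.47, adjusted p = 0.804) and Ngp (-0.65, adjusted p = 0.965) had changes below 0. These 4 did not pass, were named for this comparison after their values had been seen, and the list's median was 1.52. The myeloid list summed to 556 to 6766 CPM in ALP, 1647 to 44284 in EILP and 90.2 to 1710 in ILCp. The part of these cell types in the results for the 9 genes was not tested.

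Some markers of the innate and T lineages were higher in the later stages. Of 7 measured ILC2 genes, Gata3, Il17rb and Arg1 were higher in EILP than in ALP, Gata3 and Icos higher in ILCp than in EILP, and all 4 higher in ILCp than in ALP. From ALP to EILP, Icos (-1.33, adjusted p = 0.551) and Il1rl1 (-0.77, adjusted p = 0.841) had changes below 0 that did not pass, and the list's median was -0.04. The list had sums of 6.23 to 27.8 CPM in ALP, 182 to 296 in EILP and 1085 to 3208 in ILCp. Of 8 genes of mature NK cells, Eomes and Gzma were higher in EILP than in ALP, and these with Tbx21 and Ncr1 were higher in ILCp than in ALP, where the list summed to 23.0 to 79.4 CPM in ILCp, 3.62 to 97.0 in EILP and 0.628 to 19.4 in ALP. Klrb1c (means of 0.24 ± 2.45, -0.45 ± 3.98 and -3.39 ± 1.05 in ALP, EILP and ILCp) and Prf1 (-2.43 ± 3.73, -5.03 ± 0.84 and -3.42 ± 2.27) had lower means after ALP and did not pass. The list's median change was 2.57 in EILP versus ALP and 4.72 in ILCp versus ALP. Of 9 T lineage genes, Bcl11b was higher at both steps, and Cd3d and Cd3g were also higher in ILCp than in ALP. Cd4 (-5.60, adjusted p = 0.0773) and Cd5 (-3.03, adjusted p = 0.416) had changes below 0 in EILP versus ALP that did not pass. The T lineage sums overlapped between ALP and EILP, with 188 to 355 CPM in ALP, 205 to 363 in EILP and 408 to 888 in ILCp. Ncr1, Klrb1c, Prf1, Il1rl1, Cd4 and Cd5, and Icos in comparisons other than ILCp versus EILP, were named after their values had been seen. The part of these markers in the results was not tested either.

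Gfi1b (chr2:28609450-28621982, minus strand), the repressor known for its part in red cell and platelet formation, was the member that rose. It ran from 2.05 over 3.73 to 4.93 log2 CPM in ALP, with a mean of 3.67 ± 0.99 (SD, n = 7), and from 4.70 over 6.08 to 6.97 in EILP, with a mean of 6.04 ± 0.78 (SD, n = 7). The groups met at their edges, where ALP 4 lay above EILP 2. In ILCp 1 to 5 it was 5.40, 5.20, 4.85, 4.23 and 3.60, between the other groups and overlapping both. Gfi1b rose by 2.37 ± 0.54 (5.18-fold, adjusted p = 0.0161) in EILP, in 4 of 4 batches, by 0.63 to 4.87. This call was lost without EILP 1 (2.08, adjusted p = 0.0592) and without EILP 6 (2.09, adjusted p = 0.0681), and with only the groups compared (adjusted p = 0.0553). The later change was -1.39 ± 0.64 (adjusted p = 0.291), and ILCp versus ALP was 0.98 ± 0.62 (adjusted p = 0.406).

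Gfi1 (chr5:107716657-107726036, minus strand), the relative of Gfi1b with a main part in lymphocytes and granulocytes, passed in none of the comparisons. It ran from 3.88 over 4.81 to 5.59 in ALP and from 3.82 over 4.61 to 5.07 in EILP. ILCp 1 to 5 stood at 3.06, 3.95, 4.02, 2.92 and 4.96, overlapping both. Its changes of -0.30 ± 0.43 (adjusted p = 0.76), -0.70 ± 0.51 (adjusted p = 0.536) and -1.005 ± 0.493 (adjusted p = 0.261) did not pass. A430072P03Rik, on the other strand, shares 101 exon bases with Gfi1 and did not pass either (-1.34, -3.84 and -3.24 in ALP, EILP and ILCp). The log2 difference of Gfi1b and Gfi1 was -3.19 to 0.82 in the ALP libraries and 0.89 to 2.37 in the EILP libraries, and EILP minus ALP ran from 0.65 to 5.36 in the batches with both groups. This pair too was chosen after its values had been seen, so the difference is given as a description, without a test result.

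**Figure D5:**
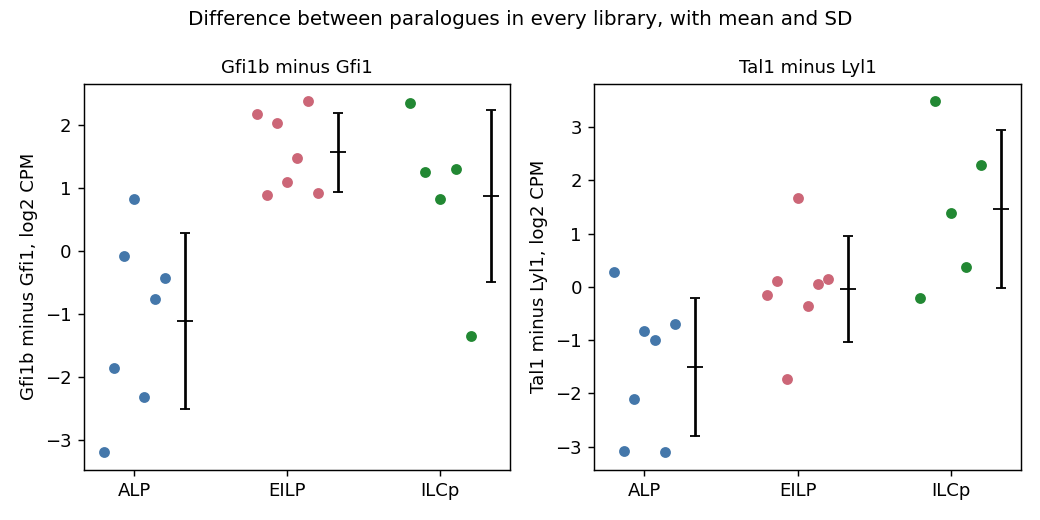
Log2 CPM of Gfi1b minus Gfi1 (left) and of Tal1 minus Lyl1 (right) in every library, with the group mean and SD. Gfi1b minus Gfi1 is -1.12 on average in ALP and 1.56 in EILP with no overlap, and Tal1 minus Lyl1 overlaps between all stages.

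Of 8 genes of corepressors of GFI1 and GFI1B, Rcor2, a partner of KDM1A, was the member that passed, and it rose by 1.81 ± 0.45 (adjusted p = 0.0286) from 3.78 ± 0.65 in ALP to 5.58 ± 0.38 in EILP and stood at 4.15 ± 1.02 in ILCp. Kdm1a itself did not pass (7.23 ± 0.28, 6.96 ± 0.38 and 7.32 ± 0.23). Median changes of the list were 0.31, -0.13 and 0.10 in the 3 comparisons.

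Some markers of red cells, platelets and mast cells were also higher in EILP than in ALP. Of 16 erythroid and megakaryocyte genes, 3 were higher and none lower. Zfpm1, the GATA1 cofactor FOG1, rose by 2.404 ± 0.376 (adjusted p = 0.000921). Itga2b, an integrin of platelets and early progenitors, was at a mean of -4.10 ± 1.59 in ALP, where 5 of 7 libraries lay at the shared lowest level, and at 5.99 ± 0.59 in EILP and 4.396 ± 2.395 in ILCp. Gp1bb, a platelet receptor chain, had a mean of -4.50 ± 1.63 in ALP, where 6 of 7 libraries lay at the shared lowest level, and 1.20 ± 1.93 in EILP. These 3 were also higher in ILCp than in ALP, and Gp9 was lower in ILCp than in EILP. The list summed to 113 to 375 CPM in ALP, 268 to 1495 in EILP and 230 to 1666 in ILCp. Gata1 and Klf1, which define the red cell lineage, did not pass, with means of -1.67 ± 2.46 and -0.83 ± 3.32 in ALP and of 1.70 ± 2.29 and 2.19 ± 3.86 in EILP. The globin genes Hba-a1, Hba-a2, Hbb-bs and Hbb-bt had changes of 2.62 to 3.53 in EILP that did not pass (adjusted p from 0.0969 to 0.247), and the median change of the list was 2.78. Pf4, of the same list, had a change below 0 in EILP (-0.79, adjusted p = 0.849) that did not pass. The globin genes and Pf4 were named after their values had been seen. Of 6 measured mast cell and basophil genes, Cpa3 passed, with means of 0.68 ± 3.03 in ALP, 10.04 ± 1.46 in EILP and 7.85 ± 0.91 in ILCp, and the list summed to 16.0 to 715 CPM, 352 to 5017 CPM and 128 to 723 CPM. Fcer1a, which defines mast cells and basophils, lay at the shared lowest level in 6 of 7 ALP, 5 of 7 EILP and 2 of 5 ILCp libraries. Fcer1a (-1.06, adjusted p = 0.851) and Prss34 (-4.49, adjusted p = 0.258) had changes below 0 in EILP versus ALP that did not pass. Changes of Hdc, Mcpt8 and Ms4a2 were above 0 and did not pass either, and the list's median was 2.64. These 5 genes were named after their values had been seen. The part of such cells in the rise of Gfi1b was not tested.

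Bmi1 (chr2:18677018-18686629, plus strand) had nearly the same mean level in all stages. It ran from 6.00 over 6.54 to 6.93 in ALP and from 6.07 over 6.59 to 6.95 in EILP. In ILCp 1 to 5 it was 6.60, 6.08, 6.26, 6.32 and 6.28, within the range of the other groups. Its changes were -0.00 ± 0.20 (adjusted p = 1), -0.22 ± 0.24 (adjusted p = 0.705) and -0.22 ± 0.23 (adjusted p = 0.657), and centring on library medians moved the first to 0.21. By batch, the first ran from -0.61 to 0.78 and was below 0 in 1 of 4 batches. The third passed with batch as a random effect (adjusted p = 0.0116), a setting that called 11612 genes in that comparison. The 15 measured genes of Polycomb repressive complex 1 had none called in EILP versus ALP and 1 higher and 1 lower in each of the other comparisons. Rnf2, the catalytic RING1B subunit, rose by 1.10 ± 0.24 (adjusted p = 0.0213) from EILP to ILCp. Pcgf6, a subunit that takes the place of BMI1 in a variant complex, fell by 2.08 ± 0.40 (adjusted p = 0.0104) at the same step.

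Other stem and multipotent progenitor genes were mixed. Of 12 genes, 2 were higher and 3 lower in EILP versus ALP, 2 higher and 1 lower in ILCp versus EILP, and 1 higher and 2 lower in ILCp versus ALP, with median changes of -1.18, -0.18 and -1.13. Hoxa9, a homeobox gene of stem cells, fell by 2.29 ± 0.56 (adjusted p = 0.0232) in EILP and was 18.3-fold lower in ILCp than in ALP (adjusted p = 0.000536), and its cofactor Meis1 fell by 1.29 ± 0.35 (adjusted p = 0.0452) in EILP. Ly6a, the gene of Sca-1, fell by 3.43 ± 0.47 (adjusted p = 0.000288) in EILP and rose by 2.49 ± 0.56 (adjusted p = 0.0238) in ILCp. Mycn, a MYC family gene, had a rise of 2.56 ± 0.33 (adjusted p = 0.00016) in EILP and a fall by 1.76 ± 0.39 (adjusted p = 0.0231) in ILCp. Cd34 was lower in ILCp than in ALP (-3.67 ± 0.95, adjusted p = 0.0241). Kit, a gene of all 3 gates, rose by 0.69 ± 0.10 (adjusted p = 0.00041) and then by 0.48 ± 0.12 (adjusted p = 0.0362).

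The reporter allele was compared within ILCp, with 3 Tcf7EGFP and 2 Plzf-cre-GFP libraries. None of the 9 genes passed in limma, with Gfi1b at the lowest unadjusted p (0.101), and their changes ran from -1.62 for Tal1 to 0.33 for Gfi1. Over all genes tested, limma called 14, or 0.0752%, and 845 had an unadjusted p below 0.05. Both Plzf-cre-GFP libraries belong to batch 4, which also held ILCp 3.

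The genes whose profiles lay nearest to each member were found over the 19 libraries among 9351 genes with a mean above 2 log2 CPM, by the root mean square difference of profiles centred on their means. For Mef2c these were H2afy, a macroH2A histone gene (0.439), Dusp2, a MAP kinase phosphatase (0.451), and Ptger3, a prostaglandin receptor (0.463), against a median of 1.28 over all genes. For Lyl1 they were Irf8, an interferon regulatory factor (0.447), Fgd2 (0.491) and Lppr3 (0.535), and Irf8 was also near Hhex (0.466), after Ifitm2 (0.421) and Unc93b1 (0.442). For Lmo2 the nearest were Clec12a (0.583), Chst15 (0.676) and Il1r1 (0.757), and for Myb they were Gm14150 (0.225), Fam65a (0.225) and Calhm2 (0.289). Gfi1b had Gm16194 (0.719), Sik1 (0.757) and Hemgn, a gene of red cell precursors (0.758). Tal1 had no near profile, with Stard4 first at 0.920 against a median of 1.47, followed by Rhbdd3 (0.924) and Gpr125 (0.942). For Gfi1 they were Tmem86a (0.432), Ccdc174 (0.458) and Rad1 (0.463), and for Bmi1, which varied least, Smarce1 (0.192), Pnn (0.197) and Stx6 (0.208).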

How the data were processed

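Total RNA from sorted bone marrow progenitors was turned into cDNA with a SMARTer kit for low input and into libraries with a Nextera kit. These kits, named in the labels' protocols, leave the strand unmarked. A protocol shared by all samples names bone marrow and thymus, while the tissue label of each sample is bone marrow. The genome build mm10 and the tools STAR 2.4.0h, bcl2fastq 1.8.4, limma and edgeR appear in the submitters' processing notes without their roles. How reads were counted, and on which annotation, is not given in the sources used here.

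Values deposited by the authors were log2 CPM of 18607 genes in 19 libraries, with 9 empty columns and 0 unused columns of samples. From the values, libraries appeared to have been matched in distribution and cleared of batch differences before deposit, steps that no header or label records. Any match was not exact in the deposited values, whose summed CPM ran from 908573 in ILCp 3 to 1035204 in ALP 2. Depth per library is unknown, so no counting interval was computed, and no pseudocount applies. Of all genes, 45.2% had a value tied between libraries of a batch (tolerance 1e-05), and none of the 9 genes did. Libraries without reads of a gene would share such a value.

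The comparisons used limma 3.58.1 (R 4.3.3) on the deposited log2 values (moderated, mean-variance trend, two-sided), with all 19 libraries, stage and batch (5 levels) as fixed effects, 12 residual degrees of freedom, and Benjamini-Hochberg adjusted p below 0.05 over all genes. Fold changes carry the SE of this model and levels the SD over libraries. The members and the gene lists were chosen with earlier results of these data known. Named genes were the 9 members, up to 3 rising and 3 falling genes of each list with the smallest p among those called, and the 3 nearest profiles of each member, beside the exceptions stated. Coordinates are those of GENCODE on GRCm38, and promoters those of RefSeq. Cdkn2a, Cma1, Tpsb2 and Il13 were not found in the table. The other settings were 12 changes of the model, scaling or gene filter, each of the 19 libraries left out, and 3 alternatives chosen after seeing the data (without batch 3, without ALP 7 and EILP 2, and without ILCp 1 and ILCp 5).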

Additional observations from a re-analysis of the deposited data

How the results depend on the processing

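Of 918 results of the 9 genes under alternatives, 834 kept their direction and side of the threshold, 46 lost the call, 21 gained it and 17 changed sign, and the cause was not tested. Sign changes were those of Bmi1 and Tal1, which never passed by the main model. Bmi1 in EILP versus ALP was 0.013 with only the groups compared, 0.045 with quantile normalization, 0.21 with median centring, 0.0063 without ILCp 1 and ILCp 5, and -0.17 to 0.14 with a library left out. Tal1 was 0.40 in ILCp versus EILP without ILCp 1 and ILCp 5, and in ILCp versus ALP it was 1.35 in that setting, 0.16 without the Plzf-cre-GFP libraries and -1.75 to 0.86 with a library left out.

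The genes called in EILP versus ALP, ILCp versus EILP and ILCp versus ALP (939, 598 and 1534) were 2551, 3047 and 3856 with no batch term, 3391, 8201 and 11612 with batch as a random effect (estimated correlation -0.24), and 266, 46 and 397 when a change of at least 2-fold was tested. With only the groups compared they were 183 and 772 in ILCp versus EILP and ILCp versus ALP, with only batches holding both groups 233 and 855, without the Plzf-cre-GFP libraries 254 and 1012, and without ILCp 1 and ILCp 5 255 and 973. ILCp versus EILP gave 280 with no trend and 309 without ALP 7 and EILP 2. With a library left out they were 224 (without EILP 5) to 624 in ILCp versus EILP, with 316 without ILCp 2, 355 without EILP 2 and 384 without ILCp 1, and 920 (without ILCp 2) to 1584 in ILCp versus ALP. Deviations from the stage means of libraries with the same replicate number correlated at -0.605 to 0.000704, -0.64 to 0.0431 and -0.441 to 0.116. Several of these libraries shared a batch, and clearing of batch differences would push deviations within a batch apart. The correlations therefore cannot tell whether the numbers pair the libraries. With the number as a replicate block the counts were 1613, 1484 and 2362, with 4 members lower in ILCp versus EILP, and 0 for the reporter.

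Of the members, 0 were higher in EILP versus ALP with only the groups compared or at least 2-fold, and 0 to 1 with a library left out. There, 0 were lower at least 2-fold, 1 without ALP 7 and EILP 2, and 1 to 3 with a library left out. In ILCp versus EILP, 4 were lower with no batch term, 8 with batch as a random effect, 0 with only the groups compared, only shared batches, at least 2-fold, or without ALP 7 and EILP 2, 1 without the Plzf-cre-GFP libraries, with no trend, without batch 3 or without ILCp 1 and ILCp 5, and 0 to 2 with a library left out. In ILCp versus ALP, 3 were lower with only the groups compared, only shared batches or at least 2-fold, and 1 was higher with batch as a random effect. The reporter called 14 genes, and 6 with no batch term, 0 with batch as a random effect, 540 with only the groups compared, 531 with only shared batches, 7 at least 2-fold, 9 with quantile normalization, 0 among genes at or above the median level, 33 with no trend, and 11 to 236 with a library left out. The reporter count was 236 without ILCp 4, 134 without ILCp 5, 50 without ILCp 3, 35 to 37 without EILP 3, EILP 4 or EILP 5, 29 without ALP 4, 26 without ILCp 1 and 24 without ILCp 2.

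Depth is unknown, so limits of detection could not be set, and levels below 0 log2 CPM, such as those of Lyl1 in ILCp 1 and ILCp 5, rest on few reads.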
